A study of Homo sapiens with 2 samples.

Results

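Genes of MHC class I antigen presentation were compared between an array of cells given a miR-204-5p mimic and an array of cells given a negative control. The 9 genes, chosen by name, were HLA-B, HLA-C, HLA-E and HLA-F, which encode class I heavy chains, B2M, TAP1, TAP2, TAPBP and ERAP1. All 9 were found by symbol in the authors' deposited table of detected probes, through 13 probes, among 14894 named genes of that table. Gene expression had been measured in cells labelled HCT116, an established epithelial cell line from a human colorectal carcinoma, 48 h after either RNA was delivered by lipid transfection. Each condition had 1 single-colour Agilent array and no repeat, so no difference here carries a replicate error, and none was tested. The cells of both arrays were grown in the same medium, and no arm without transfection was analysed here.

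Class I molecules display short peptides from inside the cell to CD8+ T cells. A heavy chain pairs with the light chain beta-2-microglobulin, encoded by B2M, in the endoplasmic reticulum. Peptides made by the proteasome are carried there by the transporter TAP1-TAP2, trimmed by the aminopeptidase ERAP1 and loaded with the help of tapasin, encoded by TAPBP. Interferons raise the transcription of most of these genes, and low class I display is one way in which carcinomas escape T cells.

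The RNA that separated the conditions was the mature miR-204-5p. It is shown from 5′ to 3′ with the seed, bases 2 to 8, in capitals, because the seed is the part that pairs with target transcripts. The sequence is RefSeq's, on GRCh38.p14, chr9:70810031-70810052, minus strand. No transcript sequence was used here, so seed matches in the 9 genes were not examined.
miR-204-5p: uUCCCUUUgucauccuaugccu

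Promoter windows are shown for HLA-B, HLA-C and HLA-F, 3 of the 4 heavy chain genes that were higher on the mimic array, and for B2M, which was not. Each window is RefSeq's 250 bases before the annotated start on GRCh38.p14, read 5′ to 3′ on the gene's own strand. Windows were given for 8 of the 9 genes, 10 windows in all, and none was used for HLA-E. Capitals mark matches, on either strand, to 5 motifs bound by factors known to act on class I promoters. The motifs were the interferon-stimulated response element ISRE (GAAA, any 2 bases, GAAA), the STAT site GAS (TTCNNNGAA), the inverted CCAAT box (ATTGG), the CRE core (TGACG) and the NF-kappa B site. Overlapping matches were merged in the capitals.
HLA-B, chr6:31357180-31357429, minus strand: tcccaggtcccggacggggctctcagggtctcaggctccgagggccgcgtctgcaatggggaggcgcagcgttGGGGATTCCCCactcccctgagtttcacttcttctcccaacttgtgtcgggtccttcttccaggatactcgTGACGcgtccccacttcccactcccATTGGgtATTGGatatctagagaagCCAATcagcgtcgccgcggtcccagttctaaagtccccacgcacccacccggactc
HLA-C, chr6:31272093-31272342, minus strand: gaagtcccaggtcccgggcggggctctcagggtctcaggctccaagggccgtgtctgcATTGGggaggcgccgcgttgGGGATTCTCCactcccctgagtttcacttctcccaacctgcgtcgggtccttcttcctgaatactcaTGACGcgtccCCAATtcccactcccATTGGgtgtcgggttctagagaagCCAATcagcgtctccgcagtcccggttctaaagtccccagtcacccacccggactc
HLA-F, chr6:29723184-29723433, plus strand: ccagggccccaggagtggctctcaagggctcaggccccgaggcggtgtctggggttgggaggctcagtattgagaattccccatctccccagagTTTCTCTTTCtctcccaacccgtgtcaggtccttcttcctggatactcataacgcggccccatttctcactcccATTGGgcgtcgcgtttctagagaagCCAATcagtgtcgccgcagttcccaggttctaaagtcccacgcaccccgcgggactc
B2M, chr15:44711267-44711516, plus strand: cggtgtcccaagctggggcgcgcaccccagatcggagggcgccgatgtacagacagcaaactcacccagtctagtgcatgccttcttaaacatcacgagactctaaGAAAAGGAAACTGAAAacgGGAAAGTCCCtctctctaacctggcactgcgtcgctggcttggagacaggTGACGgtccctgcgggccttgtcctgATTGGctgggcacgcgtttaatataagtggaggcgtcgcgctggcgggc

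The 3 heavy chain promoters were close relatives. In a global alignment the HLA-B and HLA-C windows shared 226 bases, equal to 90.4% of a window, and HLA-F shared 202 with HLA-B and 201 with HLA-C. The B2M window shared 133 bases with that of HLA-B. An ISRE match stood in 5 of the 10 windows, in HLA-F, B2M, TAP1, TAP2 and TAPBP, whereas 3.02% of all 35116 windows of this length held one. An NF-kappa B match stood in 6 windows, those of HLA-B, HLA-C, B2M, TAP1, TAPBP and ERAP1, against 9.96% of all windows. The inverted CCAAT box was also in 6 windows (32% of all), the CRE core in 4 (21.2%) and the GAS in 1, of TAP1 (6.57%). Only exact matches were counted, so a window without one may still hold a variant of the site. A match describes letters and shows no binding, and ISRE matches were present in genes that were higher and in genes that were lower on the mimic array.

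Before any gene was compared, the arrays were set against the labelled cell type. Of 10 measured epithelial markers, 9 exceeded the control array by at least 1.5-fold and 0 fell short by as much, with a summed scaled intensity of 267049 against 44977. For 1366 of 20291 table probes, called recomputed here, the deposited mimic intensity was the product of the control intensity and the fold listed in the authors' deposited table, to a relative difference of at most 1e-06. Of 9 mesenchymal markers 8 were lower, 7 of them from recomputed probes, with a sum of 12919 against 346300. The remaining marker, COL1A1, was higher, at 487 against 75.3. Without recomputed probes 2 mesenchymal markers were left, 1 lower and 1 higher. CDH1, the adhesion protein E-cadherin that defines epithelium, had a scaled intensity of 11324 with the mimic and 36.6 with the control, where negative-control spots had a median of 4.45. Other epithelial markers were bright on the control array, with KRT18 at 22142.5, CLDN4 at 13611.3, KRT19 at 6112 and KRT8 at 1430. Dimmer there were CLDN7 at 679, EPCAM at 608, ST14 at 199 and CLDN3 at 119. KRT18 was 1.97-fold and CLDN4 2.03-fold higher on the mimic array. VIM, the mesenchymal filament vimentin, had 1279 against 163211, from a recomputed probe. The colon markers CDH17 and LGALS4 were at or near the dim end of both arrays, CDH17 at 4.52 on each and LGALS4 at 48.3 against 39.1. Leukocytes are rich in class I. Of 6 leukocyte markers 4 were within 1.5-fold, and PTPRC, the defining antigen CD45, was 105 against 143. CD79A, a chain of the B cell receptor complex, was 5065 against 2431, and CD68, a macrophage marker, was 432 against 1684 from a recomputed probe. The leukocyte sum of 5939 against 4644 was 874 against 2213 without CD79A. Of 4 endothelial markers 2 were lower, 1 of them (ENG, 42.5 against 146) from a recomputed probe, with a sum of 618 against 961. PECAM1, an endothelial marker outside the authors' deposited table, read 4.52 against 222 and 10.9 against 114. Another PECAM1 probe read 5.99 against 5.42. The control array thus went against the epithelial label of HCT116 in its low CDH1 and high VIM, but not in its KRT18 and CLDN4. Whether both arrays hold the labelled cells is in doubt, so each value here is a difference between the arrays labelled mimic and control. The part that these differences between the arrays have in the class I values was not tested, and in bulk RNA fewer cells of a type and less RNA per cell cannot be told apart.

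All values below are deposited intensities scaled so that the 75th percentile of each array's probes is the same, and differences are log2 intensity, mimic minus control. Every difference of at least 1.5-fold was counted. Across the 14894 genes, 23.5% were higher and 24.7% were lower on the mimic array by that criterion. The median of all genes was -0.05 and the middle 50% lay between -0.58 and 0.54. As a guide to technical spread, the pair of probes of a gene differed by a median of 0.48 over 2514 genes with 2 probes, and among 999 probes printed as at least 8 spots the SD over spots had a median of 0.077.

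The heavy chain genes among the 9 were all higher on the mimic array, and the other 5 genes were not all on one side. HLA-B, HLA-C, HLA-E and HLA-F were 2.96-fold to 4.39-fold higher. Of the other 5 genes, B2M, TAP2 and ERAP1 were at least 1.5-fold lower and TAP1 (higher) and TAPBP (lower) stayed just inside that limit. In all, 4 of 9 genes were higher and 3 lower, with a median difference of 0.57. At 2-fold, which 14.0% of all genes passed upwards and 14.3% downwards, the 4 heavy chain genes were again the higher ones and ERAP1 alone was lower. At 3-fold, passed by 6.72% of all genes upwards and 7.08% downwards, HLA-C and HLA-F were higher and ERAP1 lower.

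**Figure D1:**
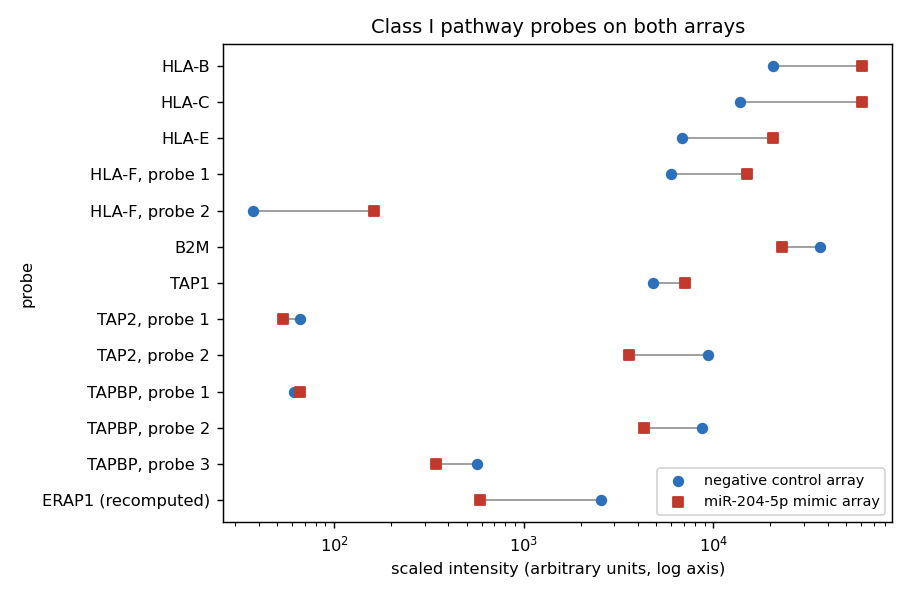
Scaled intensity (horizontal, log axis, arbitrary units) of the 13 probes of the 9 genes, 1 row per probe, on the control array (circles) and the mimic array (squares). All 5 probes of the heavy chain genes have the square to the right, by 2.53-fold to 4.39-fold, whereas B2M, both TAP2 probes, 2 of 3 TAPBP probes and ERAP1 have it to the left.

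HLA-C encodes a classical heavy chain that presents peptides to T cells and is also a main ligand of KIR receptors on natural killer (NK) cells. Its 1 probe had a scaled intensity of 60790 with the mimic and 13863 with the control. This was 4.39-fold higher, a log2 difference of 2.13 at percentile 96.5 of all genes. The file places the probe on chromosome 6, bases 31236617 to 31236676, without naming a genome build, here and for every probe.

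HLA-B, the most polymorphic of the classical heavy chain genes, had 60723 with the mimic and 20532 with the control. The difference was 1.56, or 2.96-fold, at percentile 93.1. The table's probe lies on chromosome 6 from 31321653 to 31321712. A second probe with an HLA-B accession was on the arrays but outside the authors' deposited table, and it read 50711 against 13923, or 3.64-fold higher. Both HLA-B probes thus had the same direction, and they differed from each other by less than the usual gap between probes of a gene.

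HLA-E is a nonclassical heavy chain that presents leader peptides of other class I chains to the NKG2A receptor of NK cells. Its probe, on chromosome 6 from 30460729 to 30460788, had 20507 with the mimic and 6839 with the control. That is a difference of 1.58, at percentile 93.3 of all genes.

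HLA-F, a nonclassical heavy chain that can reach the surface without peptide, had 2 probes that agreed in direction. The brighter one read 15073 against 5957 (2.53-fold) and the dimmer one 162 against 37.4 (4.34-fold). The mean of both was 1.73 on the log2 scale, or 3.31-fold, at percentile 94.3. The 2 probes lie 165425 bases apart in the file's coordinates, starting at 29857539 and at 29692114 on chromosome 6, and whether the brighter one reads HLA-F itself was not checked. Heavy chain genes are near copies of each other and differ between people, so a probe may also bind transcripts of a related gene, and the 4 values are not independent.

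B2M, the invariant light chain that class I heavy chains generally need to leave the endoplasmic reticulum, was read by 1 probe printed as 10 spots. On the mimic array the spots ranged from 21709 to 24305 with a median of 22920. On the control array they ranged from 33421 to 39974 with a median of 36061. At this scaling the ranges did not overlap, and each of the 10 spots was lower on the mimic array, by between -0.54 and -0.75 on the log2 scale. The mean difference was -0.67, or 1.59-fold lower, with an SD over spots of 0.056 that describes printing and scanning, not cells. The zero point decides both the size and the separation of the ranges. Without scaling the difference was -0.06, about as large as the SD over spots, and in the authors' deposited normalized values it was -0.03. A shift of the zero point moves all genes alike, and without scaling the 4 heavy chain genes lay between 2.17 and 2.74.

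TAP1 and TAP2 form the transporter that moves peptides into the endoplasmic reticulum, and their probes lay on opposite sides. TAP1 had 7106 with the mimic and 4791 with the control, a difference of 0.57 or 1.48-fold higher. Its probe lies on chromosome 6 from 32813210 to 32813269. The bright TAP2 probe, from 32793222 to 32793281, had 3584 against 9395, or 2.62-fold lower. The dim TAP2 probe, from 32789804 to 32789863 and with another accession, had 53.8 against 66.2 and lay at -0.30. Their mean was -0.84, or 1.80-fold lower. Of 12 alternative settings, 7 put TAP1 past 1.5-fold higher and 10 put TAP2 past 1.5-fold lower, so both calls depend on the zero point. TAP2 was at -0.23 without scaling and at -0.11 in the authors' deposited normalized values.

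TAPBP encodes tapasin, which bridges TAP and the empty heavy chain and edits the peptide. Its brightest probe, on chromosome 6 from 33267718 to 33267777, read 4309 with the mimic and 8751 with the control, or 2.03-fold lower. A second probe, from 33271911 to 33271970, read 345 against 570, or 1.65-fold lower. Another probe, dim on both arrays, read 65.7 against 61.2 and lay at 0.10. The mean of -0.55 was 1.46-fold lower and turned to 0.06 without scaling and to 0.10 in the authors' deposited normalized values.

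ERAP1, the aminopeptidase that trims peptides to the length class I molecules hold, had the largest difference downwards among the 9 genes. Its table probe, on chromosome 5 from 96110216 to 96110275, read 587 against 2552 on the control array, a difference of -2.12 or 4.34-fold lower, at percentile 4.06. In the authors' deposited table this probe is marked Down with a fold of 0.351, whereas the other 12 probes are marked Up, 4 of them with a fold below 1. The authors' deposited table marks 3346 of 4713 probes with a fold below 1 as Up, and no source used here states the basis of the mark, so no direction was taken from it. The ERAP1 probe is recomputed, so the ERAP1 value may not be an independent reading of the mimic array. Of the 22 spots behind the 13 probes, 21 mimic values were 1.2 times a number of 7 significant digits and the ERAP1 spot was not. The share of all mimic spots with this pattern is not reported here, so the count does not set these probes apart. What the pattern means was not tested. A second ERAP1 probe, outside the table, was dim on both arrays (20.3 against 24.3). No other of the 13 probes was recomputed.

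**Figure D2:**
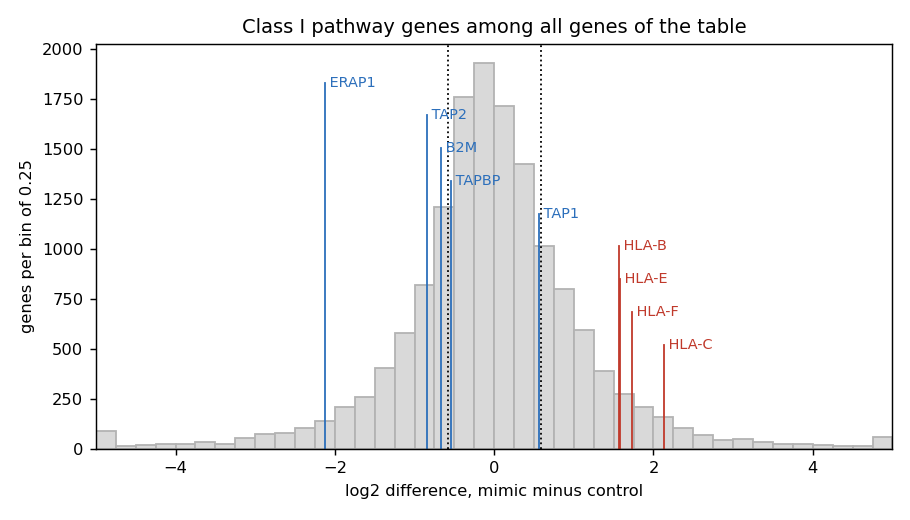
Number of genes (vertical) by log2 difference, mimic minus control (horizontal, bins of 0.25, the end bins also hold all genes beyond them), with a line for each of the 9 genes whose height has no meaning. Dotted lines mark 1.5-fold, and the 4 heavy chain genes lie between 1.56 and 2.13 while B2M, TAP2 and TAPBP lie between -0.84 and -0.55.

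The authors' deposited folds put the zero point elsewhere and kept this order. In the authors' deposited table HLA-C was 6.50-fold, HLA-E 4.79-fold and HLA-B 4.45-fold higher on the mimic array, and the HLA-F probes were 4.10-fold and 7.52-fold higher. The authors' deposited table gives TAP1 a fold of 2.43, B2M 0.982 and the bright TAP2 probe 0.627. The median of all genes lay at 0.58 in the deposited normalized values. Relative to that median HLA-C was at 2.12, HLA-F at 1.89, HLA-E at 1.67, HLA-B at 1.57, TAP1 at 0.69, TAPBP at -0.48, B2M at -0.61, TAP2 at -0.70 and ERAP1 at -2.09. All 4 heavy chain genes stayed above 1.5-fold in each of 12 alternative settings, from 1.22 (HLA-F) to 2.74 (HLA-C).

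**Figure D3:**
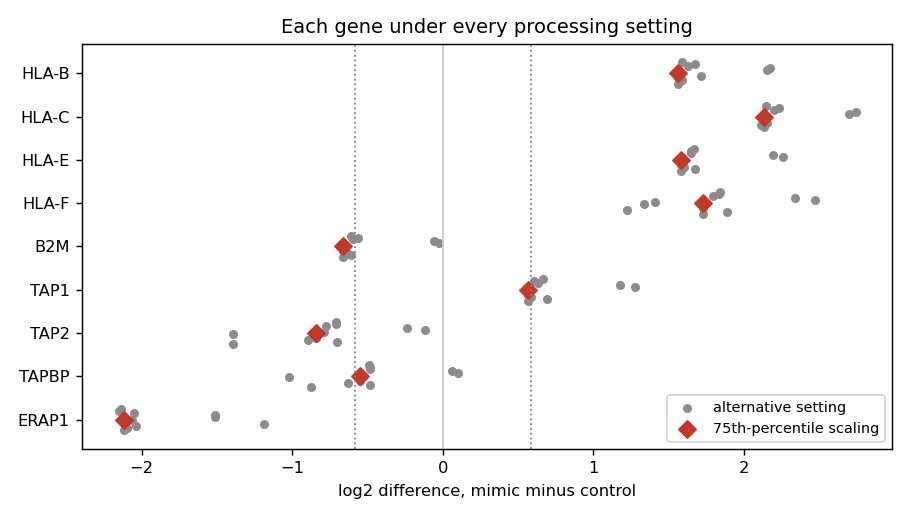
Log2 difference, mimic minus control (horizontal), of each of the 9 genes under the 75th-percentile scaling (diamonds) and under the alternative settings (grey points), with dotted lines at 1.5-fold. The grey points of HLA-B, HLA-C, HLA-E and HLA-F all lie right of the upper dotted line, while those of B2M and TAP2 reach from the lower side to near 0.

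Other genes of class I assembly followed both patterns. Of 7 measured genes, 4 were at least 1.5-fold higher, 1 was lower, and the median was 1.11, where 23.5% of all genes were higher and 24.7% lower. The heavy chain gene HLA-G read 81035 against 36341, or 2.23-fold higher, and its probe may likewise bind transcripts of a related heavy chain gene. HSPA5, the chaperone BiP, was 2.99-fold higher, and CANX, the lectin chaperone calnexin that folds new heavy chains, was 2.45-fold higher over probes at 0.64 and 1.95. ERAP2, the partner aminopeptidase of ERAP1, had 80.8 against 435 and was 5.38-fold lower, also from a recomputed probe. Both trimming aminopeptidases were thus lower, and both from recomputed probes.

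Peptide supply genes, the proteasome, its activators and cytosolic peptidases, had 4 of 12 measured members lower, 2 higher and a median of -0.39. Over all genes 24.7% were lower and 23.5% higher. PSME2, a subunit of the interferon-inducible proteasome activator PA28, had 36591 against 88423 and was 2.42-fold lower, and its partner PSME1 was 1.58-fold lower. LNPEP, an aminopeptidase of cross-presentation, was 3.60-fold lower with 1 of its 2 probes recomputed. The peptidase gene THOP1 was 2.01-fold higher, and NPEPPS was 1.82-fold higher as a mean of probes at 1.74 and -0.01. Among immunoproteasome subunits PSMB9 and PSMB10 were within 1.5-fold, while PSMB8, outside the authors' deposited table, had 8.22 with the mimic and 454 with the control.

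Transcription regulators of class I genes had 6 of 19 members lower, 1 higher and a median of -0.11. Over all genes 24.7% were lower and 23.5% higher. The interferon regulatory factors IRF7 and IRF9 were 2.69-fold and 2.62-fold lower, and STAT2, which joins IRF9 in the complex that binds the ISRE, was 1.99-fold lower. NFYB, a subunit of the factor that binds the CCAAT box, was 2.42-fold lower and ATF1, a CRE-binding factor, 2.37-fold lower. None of the 19 had a recomputed probe. The class I transactivator NLRC5, at 121 against 123 in the table's probe, and IRF1 were within 1.5-fold, which was looked up after the values were seen.

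Among interferon receptors, their kinases and inhibitors, 2 of 10 genes were lower, 1 was higher and the median was -0.41. Both counts were below the shares of all genes, 24.7% lower and 23.5% higher. SOCS3 was 2.45-fold lower, SOCS1, another inhibitor of JAK kinases, was 2.16-fold higher, and the ISG15 protease gene USP18 was 1.81-fold lower. IFNGR2 and PTPN2 came next at 1.41-fold and 1.39-fold lower.

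Interferon-inducible genes outside antigen presentation lay on the side opposite to the heavy chains. Of 17 measured genes 13 were lower by 1.5-fold or more and 0 higher, and the median was -2.78. Over all genes 24.7% were lower and 23.5% higher. IFI44, of unsettled function, had 30.6 against 10838, and the RNA-binding IFIT3, IFIT2 and IFIT1 were 158-fold, 60.1-fold and 20.5-fold lower, as was OASL by 26.4-fold. Recomputed probes stood behind 12 of the 13 lower genes, and without such probes, when 19.0% of all genes were lower, 1 of 6 remaining genes was lower and the median was 0.13. On all probes of the arrays, which adds GBP1, GBP2, CXCL10 and CXCL11 among others, 20 of 24 genes of this list were lower, against 27.2% of 20802 genes.

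MHC class II genes, whose products present peptides from outside the cell, were in part higher on the mimic array. Of 7 measured genes 4 were higher, 0 were lower and the median was 0.64, where 23.5% of all genes were higher and 24.7% lower. HLA-DMA, a peptide exchange factor, had 618 against 143, or 4.33-fold higher, and HLA-DOA, a chain of the HLA-DO molecule that restrains HLA-DM, had 130 against 49.1. A second HLA-DOA probe, outside the authors' deposited table, went the other way with 30.1 against 41.7. HLA-DRB1 was 1.66-fold and HLA-DQB1 1.56-fold higher, and HLA-DQA1, near the dim end, was 35.3 against 47.9. CD74, the invariant chain that class II molecules need, had 9.12 against 20.5 in a probe outside the authors' deposited table.

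Class I-like molecules and ligands of NK cell receptors had 1 of 8 genes higher, 1 lower and their median at 0.00. Both counts were below the shares of all genes, 23.5% higher and 24.7% lower. On all probes of the arrays, where 22.2% of 20802 genes were higher, 2 of 12 were higher, and ULBP1, a ligand of the NKG2D receptor, read 6128 against 7.07 in one probe and 97.5 against 21.9 in the other. MR1, which presents vitamin B metabolites, had 318 against 159, with both probes higher. RAET1E, also a ligand of the NKG2D receptor, was 54.2 against 132, or 2.43-fold lower. AZGP1, ULBP2 and FCGRT were within 1.5-fold.

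**Figure D4:**
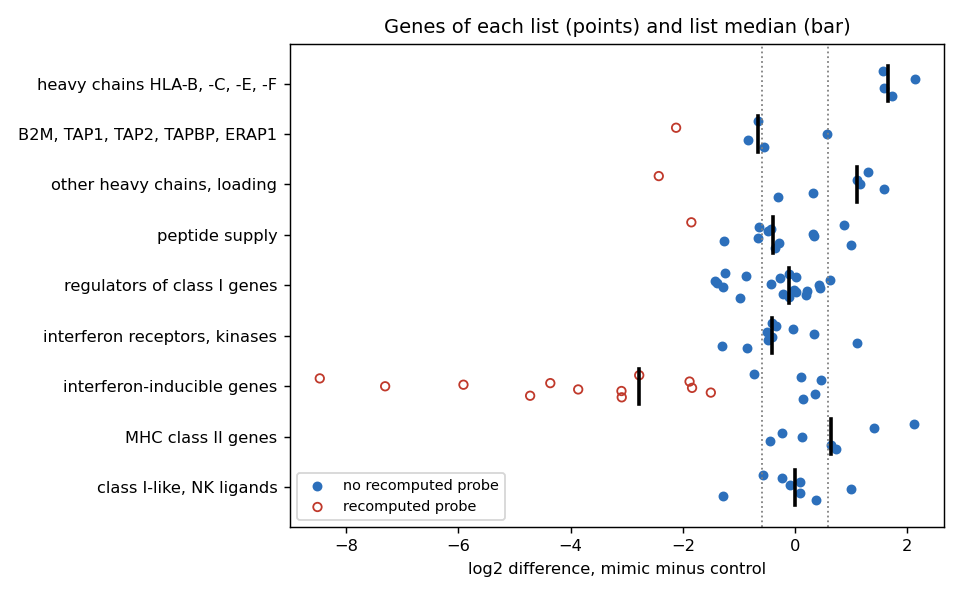
Log2 difference, mimic minus control (horizontal), of every measured gene of each list (points, open where a recomputed probe contributes) with the list's median as a bar and dotted lines at 1.5-fold. Heavy chains (median 1.66) lie to the right, interferon-inducible genes (median -2.78) to the left and mostly as open points, and B2M with the transport, loading and trimming genes have a median of -0.67.

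The heavy chain genes share a stretch of chromosome 6 with TAP1, TAP2 and TAPBP, and this stretch was examined after the values were seen. Between 29692114 and 33271970 in the file's coordinates, the table held 108 other named genes, of which 29 passed 1.5-fold upwards, 16 passed it downwards and the median was 0.09. Of these, the 12 other HLA genes, among them HLA-G already counted above, had 8 higher and 0 lower with a median of 0.83. The other 96 genes had 21 higher and 16 lower with a median of 0.07, near that of all genes. By the same criterion 23.5% of all genes were higher and 24.7% lower. The upward counts of the 108 and of the 96 genes were thus near the share of all genes, and the downward counts were below it.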

How the data were processed

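The 9 genes and the gene lists were chosen with earlier results of these data known. Each array had 44495 spots, whose deposited intensities are not normalized between arrays, per the file headers, and the submitters' processing notes name Agilent Feature Extraction 9.1. No source used here states the background correction. The authors' deposited table adds log2 normalized intensities and a linear fold (ratio) per probe, and its header limits it to detected probes. The series value table repeats those deposited log2 values.

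Log2 intensities of a probe's spots were averaged, and the 75th percentile over 34127 non-control probes (1364 on the mimic array, 894 on the control array) was equalised, a log2 shift of 0.61. A gene's value is the mean over its table probes. Table probes were named by Entrez identifier (17578), accession (23) or the file's symbol (695), with RefSeq symbols of GRCh38.p14, and 1995 stayed unnamed. Named genes were all 9 genes and the 5 largest differences of each pathway list, except that some genes of the lists are not reported here. Markers and other genes named beyond these were chosen after their values were seen. The scaling was tested on simulated data in which few probes changed, equally upwards and downwards. That test therefore does not settle the zero point in these data. Alternatives used limma 3.58.1 in R 4.3.3. Only 2 arrays limit the precision. The files used here give no flags for saturation or background.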

Additional observations from a re-analysis of the deposited data

Results flagged for a closer look

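Some probes outside the authors' deposited table, which the counts over table probes do not use, were at least 2-fold brighter on the mimic array than on the control array and over 20 times the mimic array's negative-control median. The HLA-B probe of this kind had a scaled intensity of 50711 against 13923. ULBP1, a stress-induced ligand of the NK cell receptor NKG2D, had 6128 against 7.07 in one probe and 97.5 against 21.9 in the other. HLA-DMB, the partner chain of HLA-DMA, had 266 against 5.69, and HLA-DRA, the class II alpha chain, had 94.5 against 14.3. UGGT1, which checks the folding of heavy chains, had 184 against 26.4. Each is a value of 1 array per condition with no replicate. The control values of HLA-DMB and of the brighter ULBP1 probe were near the negative-control median of 4.45. Only differences upwards were sought by this rule. Other probes outside the authors' deposited table went downwards, such as those of GBP1 (4.63 against 1382) and PSMB8 (8.22 against 454).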

How the results depend on the processing

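No paired analysis was possible because each condition had 1 array. The count of 4 higher genes was 4 or 5 in every alternative setting at 1.5-fold and fell to 2 at 3-fold (HLA-C and HLA-F). The count of 3 lower genes was 1 without scaling, 1 with the deposited normalized values, 1 at 2-fold and 1 at 3-fold, where ERAP1 was left. It was 2 with cyclic loess, where B2M lay at -0.56, and 2 without recomputed probes. It was 4 with the brightest probe of each gene, with normexp and without probes under 100 on both arrays. Without scaling 5 of the 9 genes were higher, but so were 48.704% of all genes, and 10.998% were lower. With the deposited normalized values 5 of the 9 were also higher, where 49.966% of all genes were higher and 10.937% lower. Against these shares the counts of those settings alone do not set the 9 genes apart. The median of the 9 genes, 0.57 at first, was 0.67 with quantile normalization, 0.61 with cyclic loess, 0.64 when centred on the table probes, 1.18 without scaling, 1.28 with the deposited normalized values, 1.07 without recomputed probes, 0.59 with normexp (offset 50) and 0.69 with the deposited values less their median, an alternative chosen after the data were examined. The no-scaling and deposited settings differ mainly in zero point, since the median of all genes was 0.56 and 0.58 there. ERAP1 has no value without recomputed probes. A constant of 32, the brightest probe of each gene, all probes of the array, and leaving out probes under 100 on both arrays (chosen after the data were examined) moved no heavy chain gene under 1.5-fold. The signal over background is lowest for the dim probes of HLA-F, TAP2 and TAPBP.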
